A study of Rattus norvegicus with 24 samples.

Results

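The mature microRNAs rno-miR-146a-5p, rno-miR-146b-5p and rno-miR-21-5p (written below without the prefix for rat) were followed in rat serum, as 3 of the 753 miRNA names in the deposited tables. They were chosen by name, with earlier results of these data known. Each had 1 locus in the tables and passed the low-count filter, with 136 names, in every comparison. The serum came from male Wistar Kyoto rats, an inbred strain, which received their diet from 4 weeks of age for 8 weeks and then breathed ozone or filtered air for 4 h a day on 2 days. Small RNA was sequenced in 4 groups. These were fish oil with ozone (5 libraries), fish oil with filtered air (6 libraries), normal diet with ozone (6 libraries) and normal diet with filtered air (6 libraries). The fish oil diet held 6% fish oil by weight and was a custom feed, while the normal diet was the standard chow of the animal facility, so fish oil cannot be told apart from other differences between the feeds. Ozone was set at 0.8 ppm and measured 0.8045 ppm on average. Of the 24 labelled samples, 1 (replicate 2 of fish oil with ozone) is not analysed here. Rats were housed in pairs, and the cage of each rat is not given, so rats that shared a cage are counted here as separate animals.

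A miRNA guides a silencing complex to messenger RNAs that pair with its seed, and its copies also circulate in blood in vesicles and in protein complexes. miR-146a and miR-146b are made from separate genes, and both lower the signalling proteins IRAK1 and TRAF6, which act below Toll-like and interleukin-1 receptors. miR-146a is transcribed under NF-kB and thereby forms a brake on that pathway, while in human monocytes miR-146b is induced by interleukin-10. miR-21 is transcribed under STAT3 and AP-1, is abundant in many cell types and lowers the translation inhibitor PDCD4.

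The sequences show why miR-146a-5p and miR-146b-5p are read as a pair and miR-21-5p is not. They are mature sequences from RefSeq (table build GRCr8), written 5′ to 3′, with the seed (bases 2 to 8) in capitals.
miR-146a-5p: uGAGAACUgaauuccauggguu
miR-146b-5p: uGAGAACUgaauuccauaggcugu
miR-21-5p: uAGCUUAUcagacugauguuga
The seed of miR-146a-5p and miR-146b-5p was held by no other of the 693 mature rat names in the RefSeq table, and the seed of miR-21-5p by no other name. Both miR-146 forms have the same first 17 bases. Counted from 1 at the 5′ end of miR-146a-5p, they differ by G18A and U21C, and miR-146b-5p has 2 further bases at its 3′ end. A read must therefore reach base 18 to tell them apart, and how the authors assigned reads that match both is not given in the sources used here. Neither locus held a fractional count.

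On build rn5, as the files give it, the miR-146a-5p locus is at chr10:28806796-28806818, the miR-146b-5p locus at chr1:273520443-273520467 and the miR-21-5p locus at chr10:76197098-76197120. The files do not say whether positions count from 0 or 1. Stop minus start equals the mature length at all 758 loci that could be compared, so the position given at one end lies outside the mature sequence. In the GRCr8 annotation, miR-146b-5p is on the plus strand and both others are on the minus strand.

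The mean miRNA total was lower on fish oil. It was 33302 ± 7385 expected counts in fish oil ozone libraries, 37262 ± 11332 in fish oil air, 63357 ± 20129 in normal ozone and 65638 ± 15675 in normal air (SD), and single libraries lay between 23276 and 94264. These miRNA counts made up 0.826 ± 0.335%, 0.660 ± 0.181%, 1.56 ± 0.578% and 1.36 ± 0.563% of the implied read total (SD, in the same order of groups). The implied read total is the number by which the authors divided the counts to obtain RPM (reads scaled to a common total), computed from both tables, and lay between 2243916 and 7729945 reads. Levels below are CPM (miRNA counts scaled to a common miRNA total) after TMM scaling (trimmed mean of M values), unless RPM is named. A count of 3, taken as the lowest distinguishable from 0, is 31.8 to 129 CPM before TMM scaling across the libraries, far below every level of the 3 miRNAs. A level per miRNA count and a level per read can differ in direction between diets, so for the 3 miRNAs both are given where they do. In serum, fewer cells releasing a miRNA and less of it released per cell cannot be told apart.

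All 3 miRNAs were well counted in each library. miR-21-5p was the most abundant, with 1.96% to 6.54% of the miRNA counts of a library and a rank between 2 and 12 among the names. miR-146b-5p took 0.424% to 1.27% and ranked between 18 and 33, and miR-146a-5p took 0.223% to 1.05% and ranked between 18 and 47. The lowest counts in any library were 843 for miR-21-5p (exact Poisson 95% interval 787 to 902) and 140 for miR-146b-5p (118 to 165). The lowest count of miR-146a-5p was 77 (60.8 to 96.2). These intervals cover counting error only. Reads of a mature miRNA span the whole molecule, so no length correction applies, but adapter ligation differs between sequences and the order of abundance is that of reads.

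miR-146b-5p was lower on fish oil than on the normal diet, and it was the only 1 of the 3 that passed the test across all miRNAs. It had 5048, 5030, 8261, 5445 and 5251 CPM in the 5 fish oil ozone libraries (replicates 1, 3, 4, 5 and 6). The 6 normal ozone libraries ran from 7989 to 14376 CPM with a median of 9862 CPM. Fish oil replicates 1, 3, 5 and 6 lay close together and below every normal ozone library, while replicate 4 lay just above the lowest normal ozone library. Under air, miR-146b-5p ran from 4507 to 9092 CPM with a median of 6650 CPM in fish oil rats, against 6657 to 13098 CPM with a median of 9535 CPM in normal diet rats. The air groups overlapped, with fish oil air replicates 1, 2 and 5 (8322, 9092 and 7770 CPM) inside the normal air range. Fish oil air replicates 3, 4 and 6 lay below it. Group means were 5807 ± 1382 CPM in fish oil ozone and 10309 ± 2166 CPM in normal ozone, then 6710 ± 1920 CPM in fish oil air and 9482 ± 2564 CPM in normal air (SD, n = 5, 6, 6 and 6).

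Averaged over exposures, miR-146b-5p fell by 0.66 on the log2 scale with fish oil (SE 0.16, 95% interval -0.99 to -0.33), which is 1.58-fold lower. The adjusted p was 0.00200 in the edgeR quasi-likelihood test with Benjamini-Hochberg adjustment over 136 miRNAs, and 11 of 11 fish oil libraries lay below the mean of the normal diet libraries of their exposure. This is 1 of the 3 miRNAs called, in a comparison that called 36.8% of all tested names, 19.9% higher and 16.9% lower. Under ozone alone the difference was -0.83 (SE 0.24, 95% interval -1.31 to -0.35, adjusted p = 0.0108 by edgeR), lower in 5 of 5 libraries, where 22.8% of tested names were called and 10.3% were called lower. Under air alone it was -0.50 (SE 0.22, 95% interval -0.95 to -0.05) and did not pass the threshold (adjusted p = 0.156 by edgeR), lower in 6 of 6 libraries, where 5.88% of names were called and 5.15% were called lower. The difference between the air and ozone effects was not past the threshold either, at -0.33 with an adjusted p of 0.916. With each library left out in turn, the averaged difference stayed between -0.77 and -0.62 and past the threshold in all 23 fits, and the difference under ozone did so between -0.97 and -0.76. Fits without an air library leave both groups compared under ozone whole, so they test that difference little.

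**Figure D1:**
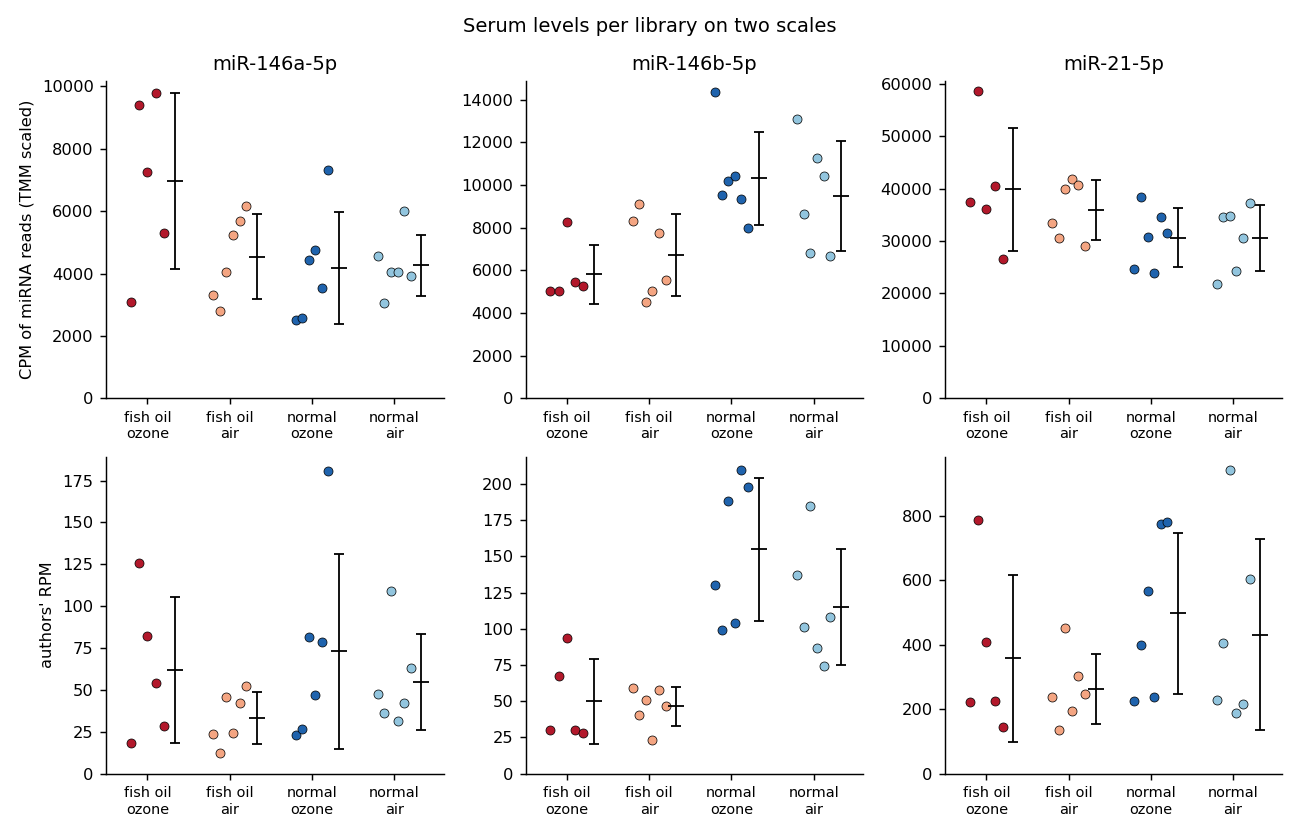
Levels of miR-146a-5p, miR-146b-5p and miR-21-5p (columns) as TMM-scaled CPM (upper row) and as the authors' RPM (lower row) in fish oil ozone, fish oil air, normal ozone and normal air rats; points are libraries, and horizontal marks with bars are means with SD. The miR-146b-5p means are 5807 and 6710 CPM on fish oil, below 10309 and 9482 CPM on the normal diet, and in RPM its fish oil libraries lie below the normal diet libraries of the same exposure, while the diets overlap for both others.

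On the RPM scale of the authors, the miR-146b-5p groups separated in full. RPM ran from 28.2 to 93.5 with a median of 30.2 in fish oil ozone libraries, against 98.9 to 209 with a median of 159.3 in normal ozone libraries. Under air it ran from 23.5 to 59.2 with a median of 48.9 on fish oil, against 74.05 to 184 with a median of 105 on the normal diet. No fish oil library reached the lowest normal diet library of its exposure. Of the 136 tested names, 15.4% showed such a complete separation downward under ozone and 10.3% under air. miR-146a-5p and miR-21-5p overlapped between diets in RPM under both exposures. When library size was set to the implied read total, the median over all 136 miRNAs moved to -0.87 for fish oil averaged over exposures, against 0.06 with TMM. On that scale miR-146b-5p was at -1.47 averaged over exposures (adjusted p = 3.6e-05), -1.31 under air (adjusted p = 0.00961) and -1.63 under ozone (adjusted p = 0.00213), all by edgeR, and 51.5%, 27.2% and 33.8% of names were called lower. The lower miRNA total on fish oil moves with these differences, and its part in them was not tested.

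miR-146a-5p, which shares the seed, was not called in any comparison. It had 3078, 9403, 7270, 9802 and 5312 CPM in the fish oil ozone libraries (replicates 1, 3, 4, 5 and 6), against 2515 to 7305 CPM with a median of 3971 CPM in the normal ozone libraries. Fish oil replicates 3 and 5 lay above every normal ozone library, replicate 4 just under the highest of them, and replicate 1 inside their lower part. Under air it ran from 2789 to 6152 CPM with a median of 4638 CPM on fish oil, against 3057 to 5992 CPM with a median of 4048 CPM on the normal diet, and these ranges nearly coincide. Means were 6973 ± 2825 CPM in fish oil ozone and 4180 ± 1786 CPM in normal ozone, then 4535 ± 1360 CPM in fish oil air and 4270 ± 975 CPM in normal air (SD, n = 5, 6, 6 and 6).

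The fish oil difference of miR-146a-5p did not pass the threshold. It was 0.41 averaged over exposures (SE 0.20, 95% interval 0.01 to 0.82, adjusted p = 0.0949 by edgeR), with 7 of 11 libraries higher. Under ozone it was 0.73 (SE 0.29, 95% interval 0.15 to 1.32, adjusted p = 0.0592 by edgeR), with 4 of 5 libraries higher, in a comparison that called 12.5% of names higher. Under air it was 0.09 (SE 0.27, 95% interval -0.47 to 0.65, adjusted p = 0.852 by edgeR). These calls changed when single libraries were left out. Without fish oil ozone replicate 1 the value under ozone was 0.86 (adjusted p = 0.0339), and without normal ozone replicate 6 it was 0.97 (adjusted p = 0.0127). Without normal ozone replicate 6 the averaged value was 0.53 (adjusted p = 0.0279). Other omissions lowered the values, to as little as 0.28 averaged and 0.49 under ozone. Over all 23 fits the largest adjusted p by edgeR was 0.310 averaged and 0.251 under ozone. The direction also turns with the scale, since with library size set to the implied read total the averaged value was -0.48 (adjusted p = 0.238), the value under ozone -0.24 and the value under air -0.72.

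The balance between both miR-146 forms was compared within each library, where scaling cancels. Reads of miR-146b-5p per read of miR-146a-5p numbered 1.64, 0.536, 1.14, 0.556 and 0.989 in the fish oil ozone libraries (replicates 1, 3, 4, 5 and 6). In normal ozone libraries the ratio ran from 1.09 to 5.70 with a median of 2.48. In fish oil air libraries it ran from 0.899 to 3.25 with a median of 1.24, against 1.69 to 2.86 with a median of 2.25 in normal air libraries. The miR-146b-5p form had fewer reads in 5 fish oil libraries, namely fish oil ozone replicates 3, 5 and 6 and fish oil air replicates 4 and 6, and in no normal diet library. Both counts lay close together in fish oil ozone replicate 6 (173 against 175). They also did in fish oil air replicates 4 (182 against 189) and 6 (347 against 386).

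Averaged over exposures, the ratio of miR-146b-5p to miR-146a-5p fell by 1.06 on the log2 scale with fish oil, which is 2.08-fold lower (two-sided exact permutation p = 0.00260, adjusted p = 0.0156 over 18 ratio comparisons), with 9 of 11 libraries lower. Under ozone it was -1.55 (exact permutation p = 0.0130, adjusted p = 0.0584), with 5 of 5 libraries lower, and without normal ozone replicate 6 it was -1.80 with an adjusted p of 0.0357. Under air it was -0.56 (exact permutation p = 0.130, adjusted p = 0.356), with 4 of 6 libraries lower. The miR-146b-5p share of reads of both forms averaged 47.1 ± 11.7% in fish oil ozone and 71.2 ± 11.1% in normal ozone, then 59.2 ± 12.2% in fish oil air and 68.5 ± 5.86% in normal air (SD). The summed level of both forms averaged 12780 ± 3277 CPM in fish oil ozone and 14489 ± 1744 CPM in normal ozone, then 11245 ± 1665 CPM in fish oil air and 13752 ± 3089 CPM in normal air (SD). These sums lay closer together than the levels of miR-146b-5p alone, and were not tested.

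**Figure D2:**
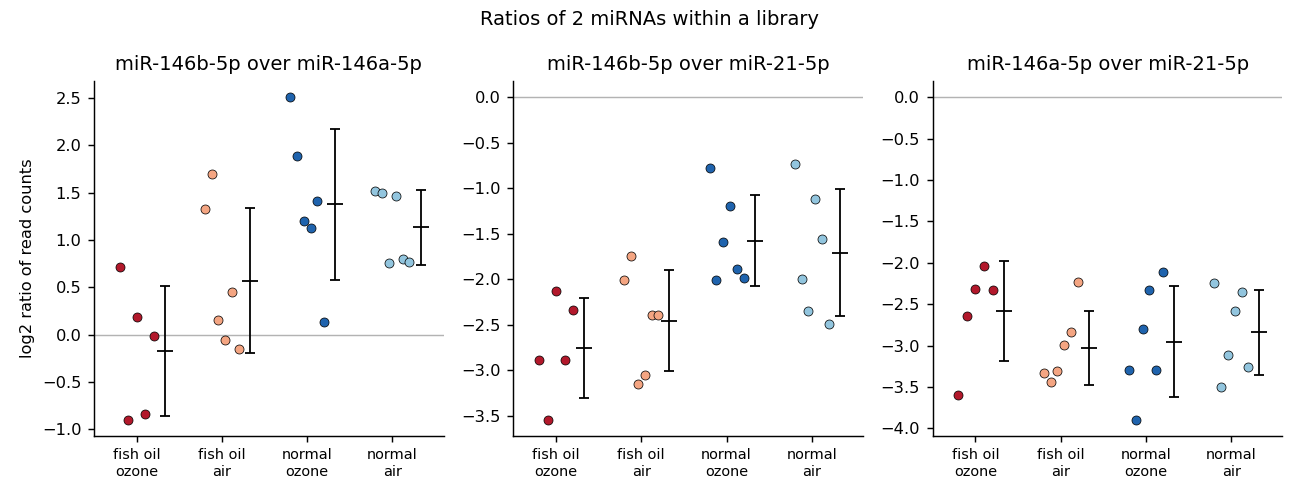
Log2 ratios of read counts within a library for miR-146b-5p over miR-146a-5p, miR-146b-5p over miR-21-5p and miR-146a-5p over miR-21-5p (one panel each) by group; points are libraries, and horizontal marks with bars are means with SD. Averaged over exposures, fish oil differs from the normal diet by -1.06 in the first ratio, by -0.97 in the second and by 0.09 in the third.

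miR-21-5p had 37429, 58717, 36172, 40490 and 26681 CPM in the fish oil ozone libraries (replicates 1, 3, 4, 5 and 6), against 23829 to 38425 CPM with a median of 31155 CPM in the normal ozone libraries. Fish oil replicate 3 stood above all other libraries and the rest fell in or just above the normal diet range. Under air it ran from 29039 to 41920 CPM with a median of 36722 CPM on fish oil, against 21746 to 37311 CPM with a median of 32600 CPM on the normal diet. The fish oil difference averaged over exposures was 0.31 (SE 0.15, 95% interval -0.00 to 0.61, adjusted p = 0.103 by edgeR), with 9 of 11 libraries higher. It did not pass the threshold under ozone (0.38, adjusted p = 0.193) or air (0.23, adjusted p = 0.447). Without fish oil ozone replicate 3 the averaged value was 0.17 and the value under ozone 0.15. The value under ozone was 0.25 without normal ozone replicate 4, and the value under air was 0.14 without normal air replicate 1. DESeq2 gave the same averaged value of 0.31 with an adjusted p of 0.0471, and setting library size to the implied read total turned it to -0.60 (adjusted p = 0.114).

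Relative to miR-21-5p, miR-146b-5p was lower on fish oil. Reads of miR-146b-5p per read of miR-21-5p numbered 0.135, 0.0859, 0.229, 0.135 and 0.197 in the fish oil ozone libraries (replicates 1, 3, 4, 5 and 6), against 0.248 to 0.582 with a median of 0.301 in the normal ozone libraries. These groups did not overlap. In CPM under ozone, 2.94% of the 136 tested names separated as fully upward and 3.68% downward, and ratios of other pairs of names were not examined. In air the ratio ran from 0.113 to 0.298 with a median of 0.191 on fish oil, against 0.179 to 0.603 with a median of 0.295 on the normal diet. The log2 ratio fell by 0.97 averaged over exposures, which is 1.95-fold lower (exact permutation p = 0.000745, adjusted p = 0.0134), with 11 of 11 libraries lower. Under ozone it fell by 1.18 (exact permutation p = 0.00216, the smallest that 5 against 6 libraries allow, adjusted p = 0.0156), and without fish oil ozone replicate 3 it was -0.99 with an adjusted p of 0.0571. Under air it was -0.75 (exact permutation p = 0.0693, adjusted p = 0.249). The ratio of miR-146a-5p to miR-21-5p passed the threshold in no comparison, and was 0.09 averaged over exposures (adjusted p = 0.738 by exact permutation).

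The opposite arms of the 3 hairpins, usually the passenger strand, were looked up in the same tables. Their RefSeq sequences are shown because they carry seeds unlike those of the 5p arms, again in capitals.
miR-146a-3p: aCCUGUGAaguucaguucuuu
miR-146b-3p: cCUAGGGAcucaguucuggug
miR-21-3p: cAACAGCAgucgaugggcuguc
miR-146a-3p had 1 count in 1 library and 0 in 22. miR-146b-3p was at 0 in 21 libraries and had 2 counts in each of the others. Neither was tested, and a count of 0 allows up to 31.8 to 129 CPM before TMM scaling, depending on the library. miR-21-3p had 5 to 81 counts a library and averaged 413 ± 273 CPM in fish oil ozone and 560 ± 115 CPM in normal ozone, then 482 ± 189 CPM in fish oil air and 734 ± 262 CPM in normal air (SD).

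The fish oil difference of miR-21-3p did not pass the threshold, at -0.52 averaged over exposures (SE 0.25, adjusted p = 0.0919 by edgeR), with 9 of 11 libraries lower. The 3p arm took 1.23 ± 1.13% of miR-21 reads in fish oil ozone and 1.82 ± 0.401% in normal ozone, then 1.40 ± 0.716% in fish oil air and 2.44 ± 1.01% in normal air (SD). The log2 ratio of miR-21-3p to miR-21-5p differed by -0.88 with fish oil averaged over exposures, which is 1.84-fold lower (exact permutation p = 0.0108, adjusted p = 0.0646 over 6 comparisons), a test added after the values were seen.

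Ozone moved none of the 3 miRNAs past the threshold, in a comparison where edgeR called 0.735% of the tested names averaged over diets. On the normal diet edgeR called 0 of 136 names, with 4 at an unadjusted p under 0.05, DESeq2 called 1 and voom called 0. On fish oil all 3 tools called 0, with 10 at an unadjusted p under 0.05 in edgeR. In the normal diet rats the ozone and air ranges given above overlapped for each of the 3. The differences there were -0.03 for miR-146a-5p (95% interval -0.58 to 0.53), 0.12 for miR-146b-5p and 0.00 for miR-21-5p, with adjusted p-values of 0.979, 0.939 and 0.994 by edgeR.

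Within fish oil rats, miR-146a-5p had the widest ozone difference of the 3. It was 0.62 (SE 0.29, 95% interval 0.03 to 1.20), with an unadjusted p of 0.0399 by edgeR and an adjusted p of 0.659, and 4 of 5 ozone libraries lay above the mean of the air libraries. Without fish oil ozone replicate 3 it was 0.40. In the same rats miR-146b-5p was at -0.21 (adjusted p = 0.880) and miR-21-5p at 0.15 (adjusted p = 0.889). The test of whether the ozone effect differed between diets gave 0.64 for miR-146a-5p (SE 0.40, 95% interval -0.17 to 1.45, adjusted p = 0.916 by edgeR), and 0 of 136 names passed it, with 6 at an unadjusted p under 0.05 and 0 by DESeq2 or voom. Averaged over diets, the ozone differences were 0.29 for miR-146a-5p, -0.04 for miR-146b-5p (95% interval -0.37 to 0.29) and 0.08 for miR-21-5p (95% interval -0.23 to 0.38), with adjusted p-values of 0.794, 0.975 and 0.952. The averaged value of miR-146a-5p was 0.18 without fish oil ozone replicate 3 and 0.19 without normal ozone replicate 6. The ratio of miR-146b-5p to miR-146a-5p did not pass for ozone on fish oil (-0.74, adjusted p = 0.356 by exact permutation) or on the normal diet (0.24, adjusted p = 0.657).

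**Figure D3:**
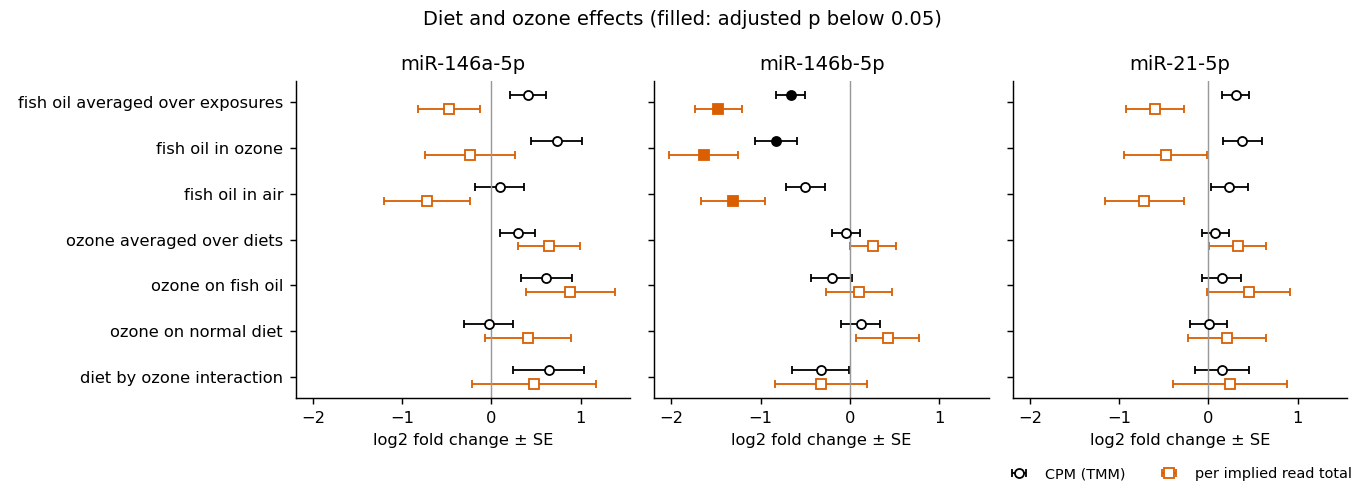
Log2 fold changes (fish oil over normal diet, ozone over air, and their interaction) with SE for each of the 3 miRNAs; circles are TMM-scaled counts, squares use the implied read total, and filled symbols have an adjusted p below 0.05 in edgeR. For miR-146b-5p both scales give lower values on fish oil, -0.66 and -1.47 averaged over exposures, while for miR-146a-5p (0.41 and -0.48) and miR-21-5p (0.31 and -0.60) the scales differ in sign.

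Across the 23 libraries, miR-146b-5p and miR-21-5p varied in opposite directions on the CPM scale. With group means removed, the log2 CPM of this pair had a Pearson r of -0.53 and a Spearman rho of -0.55 (permutation p = 0.0154 and 0.0120, adjusted p = 0.0463 for r over the 3 pairs). Without fish oil ozone replicate 4 and normal air replicate 1, the libraries farthest from the median of miR-146b-5p, r was -0.46. Within single groups of 6 libraries, r was -0.41 in fish oil air, -0.62 in normal ozone and -0.92 in normal air. The pair of miR-146 forms had r = -0.18 (adjusted p = 0.564), and miR-146a-5p with miR-21-5p had r = 0.15 (adjusted p = 0.564). The points share 1 total per library, and the sign turned with another total. Per implied read total, r within groups was 0.71 for miR-146b-5p with miR-21-5p, 0.69 for both miR-146 forms and 0.80 for miR-146a-5p with miR-21-5p, with permutation p-values adjusted over the pairs of 0.00105, 0.00166 and 9.0e-05.

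**Figure D4:**
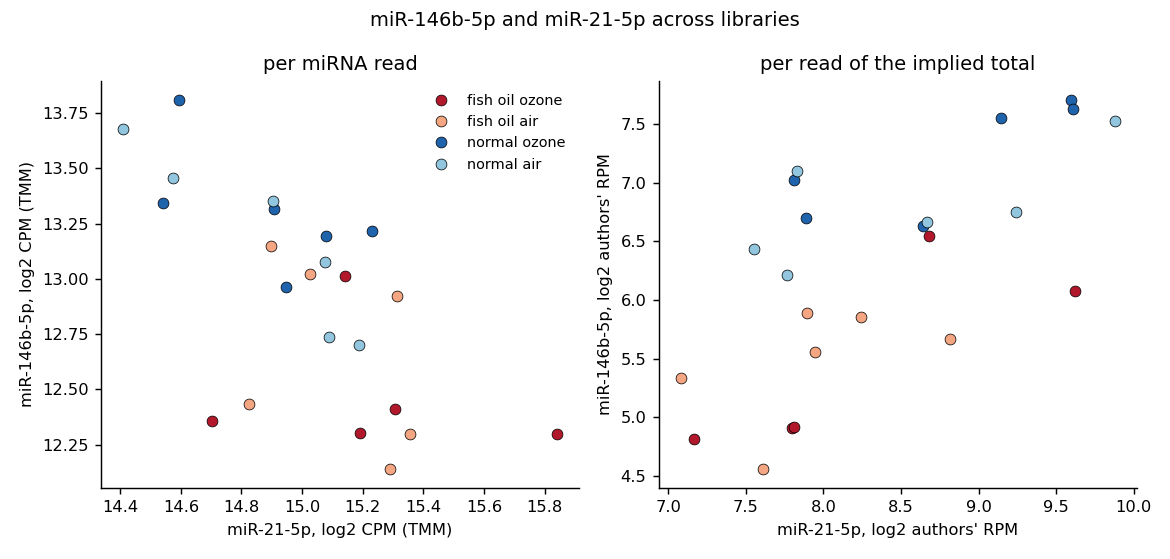
Log2 level of miR-146b-5p (vertical) against that of miR-21-5p (horizontal), 1 point per library coloured by group, as TMM-scaled CPM on the left and as the authors' RPM on the right. Within groups the relation is negative on the left (r = -0.53) and positive per implied read total (r = 0.71), and on the right the fish oil libraries lie below the normal diet libraries of the same exposure.

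The tested miRNAs most like each of the 3 were also different names. Likeness was Pearson's r of log2 CPM over the 23 libraries with group means removed, given without a test. miR-146a-5p was nearest to miR-27b-3p (0.75), miR-141-3p (0.74), miR-200a-3p (0.73), miR-150-5p (0.69), known from lymphocytes, and miR-126a-5p (0.67), known from endothelium. miR-146b-5p was nearest to miR-151-3p (0.88), miR-191a-5p (0.71), which is abundant in platelets, miR-423-5p (0.64), miR-103-3p (0.63) and miR-328a-3p (0.62). miR-21-5p was nearest to miR-26b-5p (0.86), miR-101a-3p (0.80), miR-30e-5p (0.78), miR-29a-3p (0.66) and miR-29c-3p (0.62). Ranked by likeness to miR-146b-5p, its seed mate miR-146a-5p came in place 87 and miR-21-5p in place 126.

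Markers of blood cells and tissues were read beside miR-146b-5p for fish oil averaged over exposures, where 19.9% of all tested names were called higher and 16.9% lower. The marker values are given on the TMM scale only. On the scale of the implied read total, 0.735% of tested names were called higher and 51.5% lower, so a rise given here need not hold per read. miR-191a-5p, which ranked behind miR-151-3p in likeness to miR-146b-5p, fell by 1.54 on the log2 scale with fish oil (adjusted p = 7.84e-06 by edgeR). It is on the platelet list, and the fish oil values of the other names most like miR-146b-5p are not given here. Of 4 platelet and megakaryocyte markers, all were tested. With fish oil 2 rose (miR-126a-3p and miR-126a-5p) and 2 fell (miR-191a-5p and miR-223-3p). These names are not particular to platelets, as miR-126a-5p is also named above as known from endothelium. In fish oil ozone their summed level ran from 66673 to 133567 CPM and in fish oil air from 67171 to 160911 CPM. In normal ozone it ran from 214634 to 359711 CPM and in normal air from 194634 to 361259 CPM. Most of this sum was miR-191a-5p, with a mean of 9517 counts a library. The means were 737 for miR-126a-5p, 91.1 for miR-223-3p and 11.3 for miR-126a-3p. Of 3 myeloid markers, 2 were tested and 1 fell, namely miR-223-3p, which is also among the platelet markers above. In fish oil ozone the myeloid sum ran from 1755 to 7463 CPM and in fish oil air from 2219 to 6201 CPM. In normal ozone it ran from 3118 to 8043 CPM and in normal air from 2287 to 6811 CPM. miR-142-3p was at 0 in 15 libraries. Of 3 lymphocyte markers none was called, with sums of 1077 to 2217 CPM and 833 to 1955 CPM in the fish oil groups, against 967 to 2195 CPM and 868 to 1885 CPM in the normal diet groups (ozone, then air). Of 4 erythrocyte markers 3 were tested and 2 rose, with sums of 492 to 2630 CPM and 831 to 3059 CPM in the fish oil groups, against 271 to 1084 CPM and 496 to 1184 CPM in the normal diet groups (ozone, then air). Of 3 liver markers 1 fell averaged over exposures and 2 fell under air, where 5.15% of all tested names were called lower, and all 3 tested of 4 vascular smooth muscle and mesenchyme markers rose averaged over exposures. The part of these cells in the miR-146b-5p difference was not tested. With the erythrocyte index (log2 of miR-451-5p over miR-23a-3p, a measure of haemolysis) as a covariate, that difference was -0.64 averaged over exposures (adjusted p = 0.00481 by edgeR). In the same fit the fish oil difference of miR-146a-5p was 0.29 averaged over exposures (adjusted p = 0.232 by edgeR). Under ozone it was 0.52 (adjusted p = 0.192 by edgeR). The index rests on few reads, since miR-451-5p had 3 to 75 counts a library, and the part of haemolysis was not tested.

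Other miRNAs of innate immunity were read from a list of 15 names, all of them in the tables and 7 of them tested. On fish oil, averaged over exposures, 1 rose, 1 fell and 5 did not pass the threshold, in a comparison that called 19.9% of all tested names higher and 16.9% lower, and the median of the list was 0.23, against 0.06 over all 136 tested names. miR-221-3p, which lowers the cell cycle inhibitor p27, rose by 0.45 (SE 0.16, adjusted p = 0.0230 by edgeR), higher in 10 of 11 libraries. This rise is on the TMM scale. Per implied read total the median over all 136 tested names was -0.87, and 0.735% of them were called higher. miR-223-3p, a myeloid miRNA that restrains neutrophil activation in mice, is the same name that fell among the platelet and myeloid markers above. It fell by 0.80 (SE 0.26, adjusted p = 0.0165 by edgeR), lower in 9 of 11 libraries. Its levels ran from 700 to 2038 CPM in fish oil ozone and 761 to 2185 CPM in fish oil air, against 1330 to 5164 CPM in normal ozone and 915 to 3684 CPM in normal air, with overlap under both exposures. miR-155-5p, which like miR-146a is transcribed under NF-kB but promotes inflammation, had 5 to 31 counts and a difference of 0.23 (SE 0.25, adjusted p = 0.490 by edgeR). None of the 7 passed in the other 6 comparisons, ozone among them. The 8 names that did not pass the low-count filter were miR-132-3p, miR-212-3p, miR-147, miR-9a-5p, miR-125b-5p, miR-142-3p, miR-31a-5p and miR-34a-5p.

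**Figure D5:**
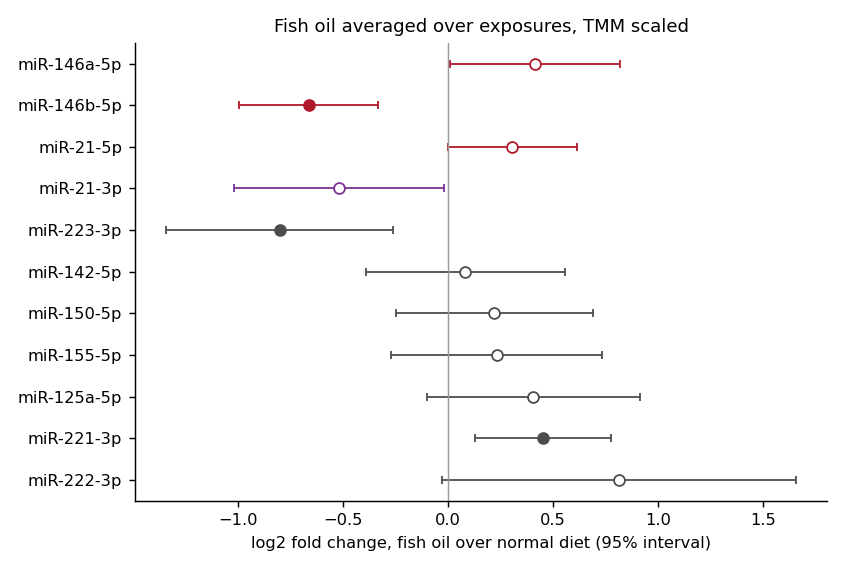
Log2 fold changes with fish oil over normal diet, averaged over exposures, for the 3 miRNAs (red), miR-21-3p (purple) and the 7 tested names of the innate immunity list (grey), as points with 95% intervals on the TMM scale; filled points have an adjusted p below 0.05 in edgeR. miR-146b-5p (-0.66), miR-223-3p (-0.80) and miR-221-3p (0.45) are filled and the others are not.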

How the data were processed

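The authors deposited a table of expected counts per mature miRNA locus (50 of 832 loci hold fractions) and a table of RPM. In each library the deposited RPM equal the summed counts divided by a total that is not stated, plus 0.0001, to within 0.0286 reads. The submitters' processing notes name the build rn5 and, as tools, Bowtie 1.0.0, Partek and bcl2fastq; their order and settings are not given in the sources used. Per the labels' protocols, RNA from 100 µl of serum was read for 50 cycles from 1 end. Counts of loci with 1 name were summed and rounded, and 0 columns were left unmapped. Names were kept by filterByExpr (minimum count 10, minimum total 15) and tested with edgeR 4.0.16 (R 4.3.3; robust quasi-likelihood F test, TMM scaling, 1 mean per group, all 23 libraries) in 7 contrasts, with Benjamini-Hochberg adjustment over 136 names and a threshold of 0.05. Intervals of fold changes are t-based. Ratios used a pseudocount of 0.5 and exact permutation tests (own code with numpy 2.4.6), adjusted over 3 ratios in 6 contrasts. Log2 CPM for correlations used a prior count of 2, with 100000 resamples. Scripts were tested on simulated data. Alternatives were other scalings and filters, DESeq2 1.42.0, voom and limma 3.58.1 on log2 RPM with a pseudocount of 1 or 10, an erythrocyte covariate and leaving out each library. The labels give no batch. Named miRNAs were the 3 miRNAs, their other arms, names of the innate list past the threshold with miR-155-5p and miR-223-3p in any case, and the 5 names most like each. The miRNAs and lists were chosen with earlier results of these data known. The p-values of group differences rest on the spread between rats, with rats that shared a cage taken as separate. Those of correlations come from permuting libraries.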

Additional observations from a re-analysis of the deposited data

Results flagged for a closer look

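Among 28 groups screened for a library apart from the others, 2 were found, where chance gives about 1 in 20 groups. In fish oil ozone replicate 4, miR-146b-5p had 8261 CPM, and the gap to the nearest of the other 4 libraries was 0.871 of the range of the group. Without it the fish oil difference under ozone was -0.97, with an adjusted p of 0.00576 by edgeR. In fish oil ozone replicate 6, miR-21-3p had 880.2 CPM, and the gap was 0.714 of the range.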

How the results depend on the processing

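Under alternatives other than leaving out a library, 200 values of the 3 miRNAs, their ratios and relations kept their direction and side of the threshold, 35 changed sign and 5 newly passed it, mostly with the denominator. These values include ratios at other pseudocounts, which can hardly move with counts this large. A value that changed sign was counted as such even where it also newly passed the threshold. With the implied read total, limma on RPM with pseudocount 1 and limma on RPM with pseudocount 10, in that order, the fish oil difference of miR-146a-5p was -0.48, -0.46 and -0.37 averaged over exposures, -0.72, -0.72 and -0.57 under air and -0.24, -0.19 and -0.16 under ozone. For miR-21-5p these were -0.60, -0.56 and -0.54 averaged, -0.72, -0.55 and -0.54 under air and -0.48, -0.57 and -0.55 under ozone. miR-146b-5p under air passed the threshold at -1.31, -1.29 and -1.13. The ozone difference of miR-146b-5p averaged over diets was 0.26, 0.20 and 0.20, and that of miR-146a-5p on the normal diet 0.41, 0.18 and 0.18. With the implied total alone, ozone on fish oil was 0.10 for miR-146b-5p, and r within groups was 0.69, 0.71 and 0.80. The interaction of miR-21-5p was -0.011 and -0.0087 on RPM, and -0.051 with total counts, which gave 0.079 for miR-146a-5p on the normal diet under ozone (0.14 with the erythrocyte index). Ozone on the normal diet for miR-21-5p was -0.029 with RLE scaling, -0.029 with DESeq2 and -0.0029 with only the compared groups. DESeq2 called miR-21-5p with fish oil (0.31).

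With each library left out, fish oil gave 0.28 to 0.53 (averaged), -0.033 to 0.20 (air) and 0.49 to 0.97 (ozone) for miR-146a-5p. Ozone gave -0.25 to 0.083 for miR-146a-5p and -0.00080 to 0.29 for miR-146b-5p on the normal diet, and -0.12 to 0.031 for miR-146b-5p averaged. For miR-21-5p ozone gave -0.038 to 0.13 averaged, -0.088 to 0.089 on the normal diet and -0.057 to 0.28 on fish oil, with an interaction of -0.037 to 0.30. Log2 ratios of miR-146b-5p to miR-21-5p ran from -1.34 to -0.99 for fish oil under ozone, -0.16 to 0.012 for ozone averaged and -0.027 to 0.33 for ozone on the normal diet. Ratios of miR-146a-5p to miR-21-5p ran from -0.0028 to 0.22 for fish oil averaged and -0.28 to 0.076 for ozone on the normal diet, and of miR-146b-5p to miR-146a-5p from -1.80 to -1.33 for fish oil under ozone.

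Counts of called names moved most with the denominator. Fish oil averaged over exposures called 27 higher and 23 lower with TMM, 1 and 70 with the implied total, 1 and 74 or 1 and 68 with RPM, and 13 lower with total counts. Fish oil under air called 1 higher and 7 lower, against 11 and 3 with total counts, 0 or 1 and 30 to 37 on the read scales (implied total and RPM), and 0 to 7 higher with other filters, tools or samples. Fish oil under ozone called 17 and 14, against 0 and 45 to 50 on the read scales. Ozone averaged over diets called 1 with TMM and DESeq2, and 0 with RLE, total counts, voom, the erythrocyte index and the read scales. With 1 library left out, fish oil under ozone called 4 to 19 higher and 8 to 17 lower, both fewest without fish oil ozone replicate 3, and fish oil under air called 1 to 8 higher (8 without fish oil air replicate 3) and 2 to 9 lower (2 without fish oil air replicate 4 or 5). No paired analysis was possible because animal numbers do not repeat between groups. Depth limits the minor arms most, since the lowest count of miR-21-3p was 5.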
